A study of Mus musculus with 9 samples.

Results

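The classical histone deacetylase genes were read in microglia whose Hdac1 and Hdac2 genes had been targeted, to see whether the other deacetylase genes differ when these are deleted. The genes are Hdac1, Hdac2, Hdac3 and Hdac8 of class I, Hdac4, Hdac5, Hdac7 and Hdac9 of class IIa, Hdac6 of class IIb, and Hdac11, the single class IV gene. They were taken as the probe sets (groups of array probes read as one value) that carry one of these names as their only gene name, which gave 11 probe sets for 10 genes, out of 41345 probe sets and 22180 named genes. Hdac11 alone had more than 1 probe set, and the brighter stood for the gene. Hdac10, the other class IIb gene, is not among the 10 and is given with the sirtuins.

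Microglia, the resident macrophages of the brain, came from the brains of female C57Bl/6 mice, 24 to 28 weeks old, and were isolated by FACS; their total RNA was measured on 9 arrays, 3 a group. Wild type mice were one group. FAD mice, the second, carried the 5X familial Alzheimer's disease transgenes, which lead to amyloid plaques, and floxed Hdac1 and Hdac2 alleles (FAD Hdac1/2fl/fl) without Cre. FAD DKO mice, the third, carried in addition Cx3cr1CreERT2, a tamoxifen-dependent Cre recombinase at the locus of the fractalkine receptor gene Cx3cr1 (FAD Hdac1/2fl/fl Cx3cr1CreERT2). Tamoxifen (8 mg, given when mice were 6 weeks old) went to every group and does not separate them. Cre, an altered Cx3cr1 locus and the deletion come together in FAD DKO. The labels do not say that the wild type mice had floxed alleles, nor whether an array holds 1 animal or a pool, so p-values here reflect only how far these samples scatter, which may be technical. Values are log2 signals, on which a difference of 1 is a doubling.

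Histone deacetylases remove acetyl groups from lysines of histones and other proteins, which in general makes chromatin less open to transcription. HDAC1 and HDAC2 are close paralogues that form the catalytic core of the SIN3, NuRD and CoREST corepressor complexes, and HDAC3 is the enzyme of the NCoR and SMRT complexes. Class IIa proteins bind MEF2 transcription factors, have little deacetylase activity of their own, and leave the nucleus when kinases phosphorylate them and 14-3-3 proteins hold them. HDAC6 works mainly in the cytoplasm, where alpha-tubulin is its best known substrate. In many cell types loss of either HDAC1 or HDAC2 raises the amount of the other protein, which is why other family members are looked at when both are deleted. Protein was not measured on these arrays.

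The sort and the arrays were checked first. All 8 measured microglia markers lay above the median of all probe sets (5.35), and their mean lay between 10.74 and 10.87 on every array. Neuron, astrocyte, oligodendrocyte, endothelial and mural, border macrophage and lymphocyte marker means lay between 4.32 and 5.65. Single markers of each list still lay above that median: 2 of 6 for neurons, 3 of 7 for astrocytes and 4 of 6 for oligodendrocytes. For endothelial and mural cells it was 3 of 6, for border macrophages 3 of 5 and for lymphocytes 1 of 7. The astrocyte marker Slc1a3 was at 7.55. Monocyte and neutrophil markers were present and uneven: their mean ranged from 7.01 to 7.92 over the wild type arrays, from 7.82 to 8.05 over the FAD arrays, and from 6.56 (replicate 1) to 8.55 (replicate 2) over the FAD DKO arrays. The part of these cells in the differences below was not tested. In a sorted population, fewer cells with a transcript and less transcript per cell cannot be told apart. The median standard error of a difference was 0.104 over all genes.

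Hdac1 and Hdac2 were the members that differed most between FAD DKO and FAD. Hdac1 stood at 8.03, 8.14 and 8.19 in FAD and at 7.63, 7.41 and 7.64 in FAD DKO. Hdac2 stood at 8.56, 8.52 and 8.36 in FAD and at 7.89, 7.61 and 7.90 in FAD DKO. For both genes the 3 FAD DKO arrays were the lowest of the 9, and FAD DKO replicate 2, the array with the most monocyte and neutrophil marker signal, was the lowest of all. Expressed as a share of the FAD signal, the FAD DKO mean was 67.8% for Hdac1 (95% confidence interval 53.8 to 85.4%) and 62.5% for Hdac2 (53.5 to 73.0%). These shares are of array signal, which is not calibrated to transcript number.

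On the log2 scale Hdac1 differed by -0.56 (SE 0.147) and Hdac2 by -0.68 (SE 0.0990). Neither passed an adjusted p under 0.05 over all genes in limma (adjusted p = 0.376 for Hdac1 and 0.159 for Hdac2), in a comparison in which 5 genes, or 0.0225% of those tested, did. Unadjusted, the limma p was 0.00416 for Hdac1 and 7.61e-05 for Hdac2, and Hdac2 ranked 10 and Hdac1 245 of 22180 genes by p. By size, 0.44% of all genes had a larger difference than Hdac2 and 0.87% a larger one than Hdac1. Hdac2 passed when genes of low signal were left out (adjusted p = 0.0458) and with a trended, robust variance model (adjusted p = 0.0337). Where the probes of these sets lie relative to the deleted exons is not given in the sources used here, so the signal is no measure of how complete the deletion was. A pseudogene of Hdac1 is listed in RefSeq under the name Hdac1-ps, has no probe set of its own name here, and its part in the Hdac1 signal was not tested.

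**Figure D1:**
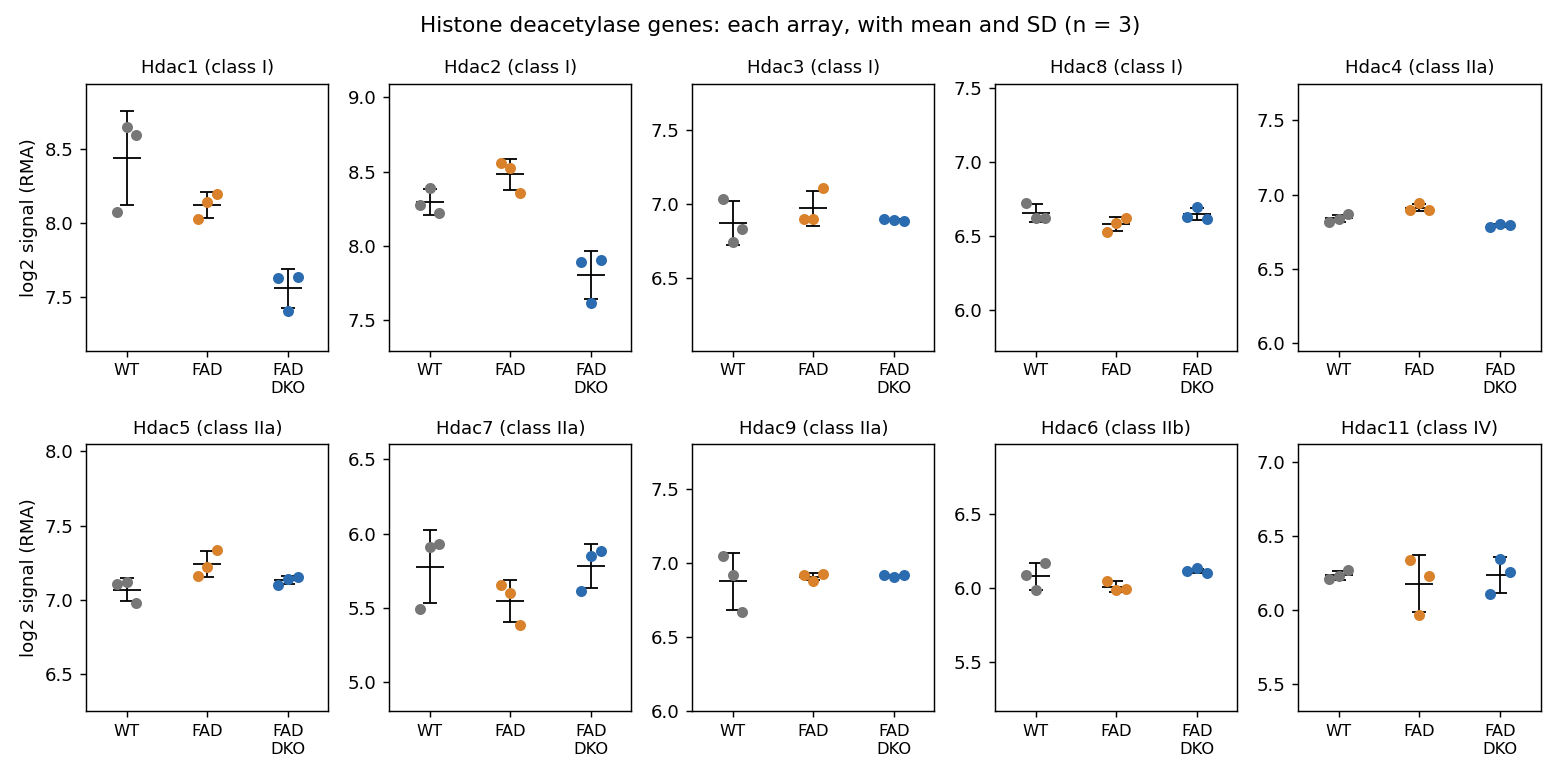
Signal of each histone deacetylase gene on each array (points, log2), with the group mean and SD (bars, 3 arrays a group); each panel spans the same 1.8 log2 units, centred on that gene's mean. Hdac1 and Hdac2 are lower in FAD DKO than on any other array, while the other panels show group means close to each other and, in Hdac7, Hdac9 and Hdac11, wide scatter within a group.

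The other class I genes, Hdac3 and Hdac8, differed from FAD by less than 0.1 on the log2 scale, with intervals that held 0. Hdac3 stood at 6.90, 6.90 and 7.11 in FAD and at 6.90, 6.89 and 6.88 in FAD DKO, within the range of the wild type arrays (7.04, 6.75 and 6.83). Its difference of -0.08 had a 95% interval from -0.29 to 0.13. Hdac8, a class I enzyme that works outside these corepressor complexes and deacetylates the cohesin subunit SMC3, stood at 6.53, 6.59 and 6.62 in FAD and at 6.63, 6.70 and 6.62 in FAD DKO. It differed by 0.07, with an interval from -0.08 to 0.21. In both genes the FAD and FAD DKO arrays overlapped.

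Among class IIa genes, Hdac4 and Hdac5 lay slightly lower in FAD DKO. Hdac4 stood at 6.90, 6.94 and 6.90 in FAD and at 6.78, 6.80 and 6.80 in FAD DKO, so that its groups did not overlap, and the difference was -0.12 (interval -0.25 to 0.01, adjusted p = 0.632 in limma). Hdac5 stood at 7.16, 7.22 and 7.34 in FAD and at 7.10, 7.14 and 7.15 in FAD DKO, again without overlap, with a difference of -0.11 (interval -0.27 to 0.05, adjusted p = 0.701 in limma). Each FAD DKO array of Hdac5 lay just under the lowest FAD array.

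Hdac7 had the largest positive difference of the family and also the widest interval of the 8 untargeted genes. It stood at 5.65, 5.60 and 5.38 in FAD and at 5.61, 5.85 and 5.88 in FAD DKO, and its wild type arrays (5.49, 5.91 and 5.93) spread over both. The difference was 0.24 (interval -0.07 to 0.54, adjusted p = 0.674 in limma), and 12.4% of all genes differed by more. Its mean over all arrays was 5.70, where the median of all probe sets was 5.35. On the FAD DKO array with the least monocyte and neutrophil marker signal, replicate 1, Hdac7 was at 5.61, and without this array the difference was 0.32; it was 0.16 without FAD replicate 3. Hdac9, which also gives rise to a short form without the deacetylase domain, stood at 6.91, 6.88 and 6.92 in FAD and at 6.91, 6.90 and 6.91 in FAD DKO. The FAD and FAD DKO arrays of Hdac9 were nearly level (difference 0.00, interval -0.21 to 0.21), and only its wild type arrays were spread, at 7.05, 6.91 and 6.67.

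Hdac6 stood at 6.05, 5.99 and 6.00 in FAD and at 6.11, 6.13 and 6.10 in FAD DKO. The groups did not overlap, FAD DKO being higher by a mean of 0.11 (interval -0.05 to 0.26, adjusted p = 0.691 in limma). The wild type arrays, at 6.09, 5.99 and 6.17, covered both groups. Hdac11, the smallest of the family and known mainly for removing longer fatty acyl groups, stood at 6.34, 5.96 and 6.23 in FAD and at 6.11, 6.35 and 6.25 in FAD DKO. The groups overlapped and the difference was 0.06 (interval -0.18 to 0.29). Its dimmer probe set, read in a like fit over all 41345 probe sets, gave -0.02 (interval -0.23 to 0.18). In that fit the brighter set gave 0.06 (interval -0.19 to 0.31), so that the probe sets differed in sign while each interval held 0.

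Of the 8 untargeted genes, 5 had a positive and 3 a negative difference between FAD DKO and FAD, with a median of 0.03, where all genes had a median of 0.01 and 53.2% of them were above 0. The differences ran from -0.12 for Hdac4 to 0.24 for Hdac7. None of the 8 differences, that is 0 of 8, passed in limma over all genes, while 0 reached an unadjusted p under 0.05, as 8.1% of all genes did. The groups did not overlap for 3 of the 8 (Hdac4, Hdac5 and Hdac6), where 11.9% of all genes had groups that did not overlap. Every one of the 8 intervals held 0. These misses do not show that the genes were unaffected. The intervals, each unadjusted, bound only the difference in array signal between these samples, not in transcript number. With all arrays 0 of 8 reached a rise of 1.5-fold. The highest upper bound was 1.45-fold for Hdac7, and 1.23-fold for Hdac11 next to it. Leaving out FAD replicate 1, FAD replicate 2 or FAD DKO replicate 1 took the upper bound of Hdac7 past 1.5-fold, to 1.57, 1.55 and 1.58-fold, and under the 17 alternatives run the other 7 stayed at or below 1.30-fold. The lowest lower bound was that of Hdac3, at 0.819 of the FAD level.

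**Figure D2:**
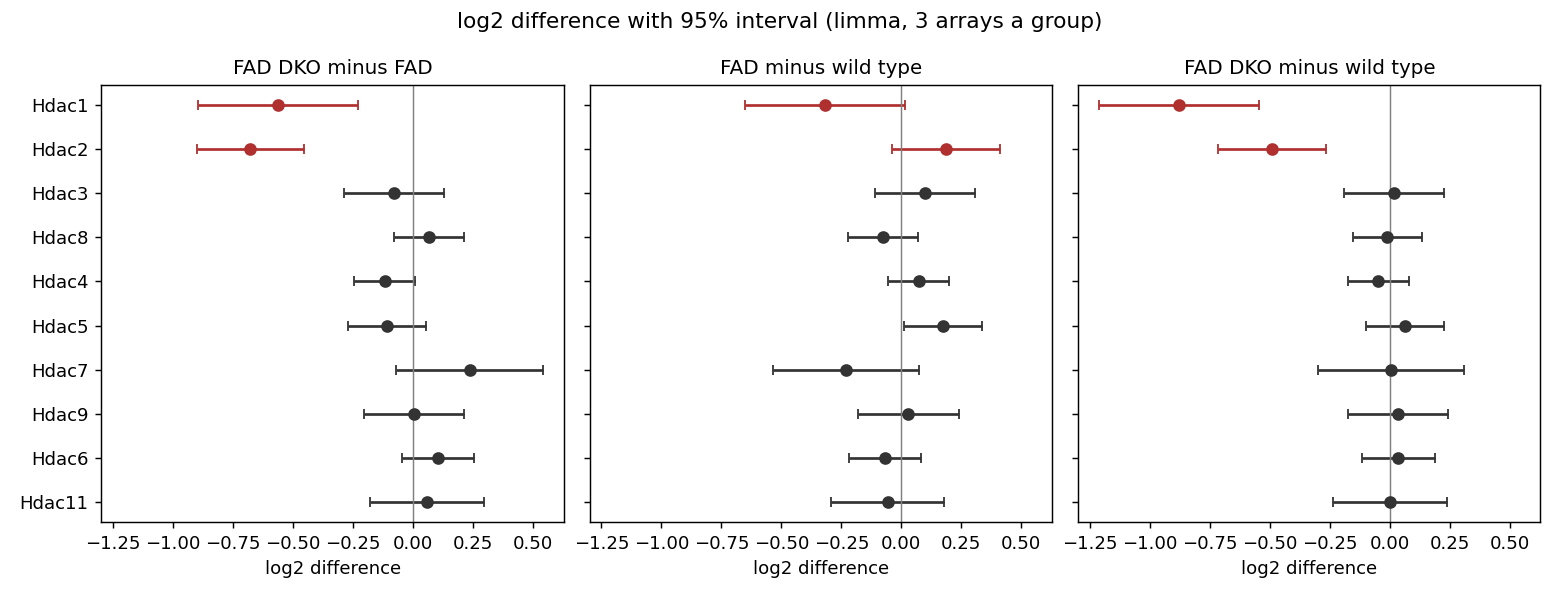
Log2 difference of each gene in the 3 comparisons (points) with its 95% confidence interval (bars, limma, 3 arrays a group); Hdac1 and Hdac2 are in red. In FAD DKO minus FAD the intervals of Hdac1 and Hdac2 lie below 0, at -0.56 and -0.68, and the other 8 hold 0.

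The comparison of FAD with wild type shows how the family stood in the disease model without the deletion. The labels give floxed Hdac1 and Hdac2 alleles for FAD but not for wild type. Transgenes and floxed alleles therefore cannot be told apart here. Here 0 of the 10 genes passed in limma over all genes, where 9 genes (0.0406%) did. Hdac5 was the 1 member with an unadjusted p under 0.05, which 8.43% of all genes reached: it stood at 7.11, 7.12 and 6.98 in wild type, below every FAD array, and differed by 0.17 (interval 0.01 to 0.33, adjusted p = 0.584). Hdac4 was the other gene whose groups did not overlap, with wild type arrays at 6.82, 6.83 and 6.87 and a difference of 0.07 (11.8% of all genes had groups that did not overlap).

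The differences of the targeted genes themselves between FAD and wild type lay on opposite sides of 0, and both intervals held 0. Hdac1 was at -0.32 (interval -0.65 to 0.02), and this value rested on the wild type arrays, which stood at 8.07, 8.65 and 8.60: leaving out replicate 1 gave -0.50 and leaving out replicate 2 gave -0.21. Hdac2 was at 0.19 (interval -0.04 to 0.41), with wild type arrays at 8.28, 8.39 and 8.22. Of the rest, Hdac7 was at -0.23, Hdac3 at 0.10, Hdac8 at -0.08, Hdac6 at -0.07, Hdac11 at -0.06 and Hdac9 at 0.03. Wild type replicate 1 was also the wild type array with the least monocyte and neutrophil marker signal (7.01). It held the lowest wild type value of Hdac1, Hdac4, Hdac7 and Hdac11 and the highest of Hdac3, Hdac8 and Hdac9. For Hdac2, Hdac5 and Hdac6 it held the middle value. With so few arrays a group, any array is the lowest or highest for many genes. The share over all genes was not counted, and a link to the marker signal was not tested, so the list is no result.

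Set against wild type, FAD DKO microglia had 54.4% of the Hdac1 signal (interval 43.2 to 68.5%) and 71.1% of the Hdac2 signal (interval 60.9 to 83.1%). Here the transgenes, Cre and the deletion come together, and the labels give floxed alleles for FAD DKO but not for wild type. The log2 differences were -0.88 for Hdac1 (adjusted p = 0.0702 in limma) and -0.49 for Hdac2 (adjusted p = 0.128), and again 0 of 10 members passed, where 31 genes (0.14%) did. These 2 were also the members with an unadjusted p under 0.05, which 8.14% of all genes reached. Hdac1 passed without wild type replicate 1 (-1.06, adjusted p = 0.0209), with array weights (-0.91, adjusted p = 0.0351), without low-signal genes (adjusted p = 0.0239) and with a trended, robust variance model (adjusted p = 0.0231), and Hdac2 passed under the last 2 of these settings (adjusted p = 0.0468 and 0.0473). These were 4 of 17 alternatives for Hdac1 and 2 of 17 for Hdac2. Under the others neither passed in limma, with adjusted p up to 0.241 for Hdac1 and 0.389 for Hdac2. Hdac1 thus had the larger difference from wild type and Hdac2 the larger one from FAD; the difference between the genes was not tested.

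In 7 of the 8 untargeted genes, all but Hdac9, the FAD DKO mean lay closer to the wild type than to the FAD mean, as it did in 51.7% of all genes; this was not tested. The 8 genes differed from wild type by between -0.05 (Hdac4) and 0.06 (Hdac5), with a median of 0.01 and every interval holding 0, and the highest upper bound was 1.24-fold, for Hdac7. The groups did not overlap for 1 of the 8, Hdac4, where 11.9% of all genes had groups that did not overlap. The 3 comparisons share arrays: Hdac5 was at 0.17 in FAD minus wild type and at -0.11 in FAD DKO minus FAD, and Hdac7 at -0.23 and 0.24, and in each pair the FAD arrays enter with opposite sign.

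**Figure D3:**
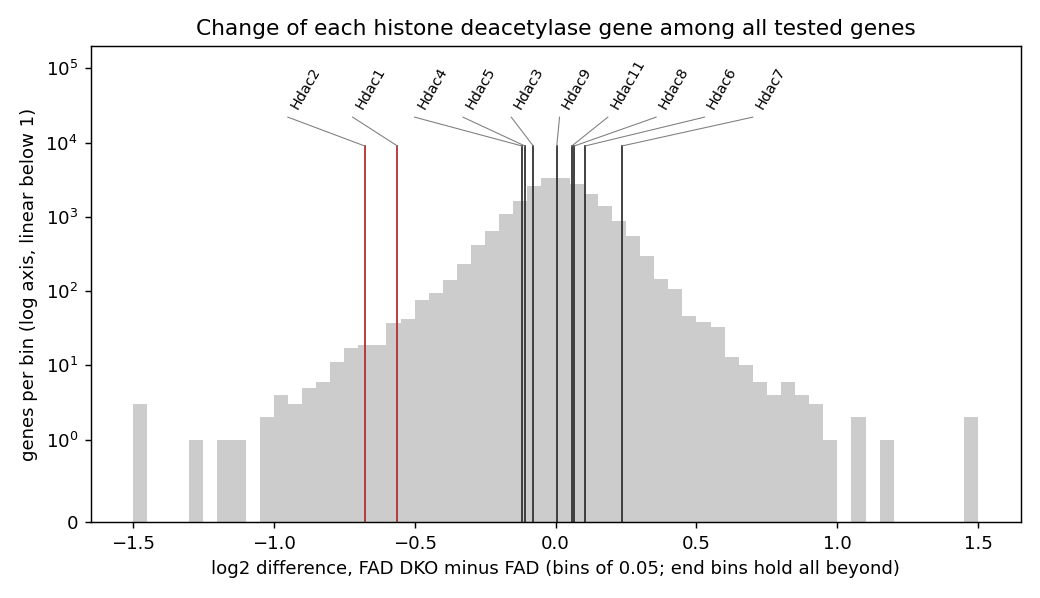
Distribution of the log2 difference, FAD DKO minus FAD, over 22180 genes (grey bars, genes per bin on a log axis that is linear below 1), with a line at the value of each histone deacetylase gene. Hdac2 and Hdac1 (red) lie in the lower tail, and the other 8 lie within the bulk, from -0.12 (Hdac4) to 0.24 (Hdac7).

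Hdac10 and the sirtuins were read in the same way. Hdac10, a polyamine deacetylase, was at -0.01 between FAD DKO and FAD (interval -0.22 to 0.20). The sirtuins, deacylases that use NAD as a cosubstrate, were all measured, and together with Hdac10 3 of these 8 genes lay above 0 and 5 below. None passed in limma (0 of 8, and 0 at an unadjusted p under 0.05). The smallest p belonged to Sirt7, a nucleolar sirtuin, at 0.19 (adjusted p = 0.65), and Sirt6, a chromatin-bound sirtuin, at 0.23 (adjusted p = 0.685).

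Partner genes of the deacetylases were read from lists of corepressor subunits, class IIa partners and the opposing acetyltransferases. Of 30 measured subunits of the HDAC1/2 complexes, 17 lay above and 13 below 0 between FAD DKO and FAD, with a median of 0.01, as over all genes, and 0 passed in limma. The lowest p there was that of Sap30, a SIN3 subunit, at -0.44 (interval -0.77 to -0.10, adjusted p = 0.504), whose FAD DKO arrays lay below all FAD arrays. It was the 1 of 30 subunits with an unadjusted p under 0.05, which 8.1% of all genes reached. Mta3, a NuRD subunit, followed at -0.20 (adjusted p = 0.615). Of the HDAC3 complex 3 of 5 listed genes were measured, Tbl1x at -0.10 and Tbl1xr1 at 0.08 among them, and 0 passed.

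Of 19 genes for class IIa partners and kinases, 10 lay above and 9 below 0, with a median of 0.02, and 0 passed over all genes. An unadjusted p under 0.05 was reached by 2 of the 19, near the 8.1% of all genes that reached it, and both were higher in FAD DKO: Ywhah, a 14-3-3 protein, at 0.28 (interval 0.11 to 0.45, adjusted p = 0.382), without overlap of the groups, and Mef2d, a MEF2 transcription factor, at 0.26 (interval 0.07 to 0.45, adjusted p = 0.478). Of 12 histone acetyltransferase genes, 11 lay above 0 and 1 below, with a median of 0.04 against 0.01 over all genes, 53.2% of which lay above 0. None of these differences passed in limma, and 0 had an unadjusted p under 0.05. The smallest p were those of Kat8, which acetylates histone H4, at 0.19 (adjusted p = 0.62) and Crebbp, the CBP acetyltransferase, at 0.11 (adjusted p = 0.679). In FAD DKO minus wild type the same 12 genes split into 7 above and 5 below 0 (median 0.02). In FAD minus wild type 4 of them lay above and 8 below 0 (median -0.03). These splits were not tested.

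Between FAD and wild type the same lists had 0 genes past the threshold over all genes. Chd3, a NuRD remodeller, was at -0.29 (adjusted p = 0.461), Sap130 of the SIN3 complex at -0.21 (adjusted p = 0.588), the acetyltransferase Hat1 at 0.26 (adjusted p = 0.524) and Crebbp at -0.15 (adjusted p = 0.584). Between FAD DKO and wild type 0 passed as well, and Hat1 was at 0.26 (adjusted p = 0.487), Chd3 at -0.23 (adjusted p = 0.529) and Ywhah at 0.19 (adjusted p = 0.551).

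Cx3cr1, at whose locus Cre lies, stood at 12.14, 12.13 and 12.11 in FAD and at 11.86, 11.95 and 11.82 in FAD DKO. All FAD DKO arrays lay below all FAD arrays, and the difference was -0.25 (interval -0.40 to -0.10, adjusted p = 0.383 in limma).

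The genes most like Hdac1 and Hdac2 over the 9 arrays were sought among 11531 genes at or above the median signal, by the root mean square difference of the centred log2 values. For Hdac1 they were Per1, a circadian clock repressor (0.123), Tagap, a GTPase-activating protein (0.178), and Nfkbia, the inhibitor of NF-kB (0.188), where the spread of Hdac1 itself was 0.400 on the same measure. For Hdac2 they were Srsf6, a splicing factor (0.0812), Id2, an inhibitor of helix-loop-helix factors (0.0964), and Nfkbiz, a nuclear regulator of NF-kB (0.0967), where the spread of Hdac2 was 0.303. The group means of Per1 were 8.65 (wild type), 8.17 (FAD) and 7.81 (FAD DKO), and those of Srsf6 were 9.36, 9.50 and 8.87. The genes were chosen on these same 9 arrays, so means that follow those of Hdac1 or Hdac2 come from the choice and are no finding. No untargeted deacetylase was among these 6. The measure also depends on how far a gene ranges over the 9 arrays. That range was 1.24 for Hdac1 and 0.95 for Hdac2, but at most 0.54 (Hdac7) among the untargeted genes. Their absence is therefore no result about them.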

How the data were processed

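Per the labels' protocols, amplified RNA carried a biotin label. The authors deposited 1 log2 signal for each probe set and array, made with RMA per the submitters' processing notes; the log2 scale was read from the values. The version of RMA is not given in the sources, and detection calls were not used here. RMA in general corrects background, equalises arrays by quantiles and summarises probes by median polish. At least 2 arrays held identical values for 60.1% of genes, including Hdac3, Hdac8, Hdac9 and Hdac10, so their small SDs carry less weight.

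Of 41345 probe sets, 23521 had 1 gene symbol in the platform annotation, 1814 had several and 16010 were not listed. The brightest probe set by mean stood for a gene. The test was that of limma 3.58.1 (lmFit and eBayes, under R 4.3.3), in 1 fit of all 9 arrays, with 6 residual degrees of freedom (8.98 after moderation). The dimmer Hdac11 probe set was read in a like fit over all 41345 probe sets. P-values are two-sided and Benjamini-Hochberg adjusted over 22180 genes, with a threshold of 0.05; intervals are 95% and unadjusted. The number of arrays limits the precision. Simulated data held 200 changed genes of 22180. On these the fit of FAD DKO against FAD recovered 64.0% of genes changed 1.5-fold and 94.2% of those changed 2-fold. Recovery with this adjustment depends on how many genes differ, and in the measured data 5 passed in this comparison. The shares are therefore no estimate of the chance to detect a 1.5-fold difference here. Hdac2, at -0.68 (SE 0.0990), did not pass in limma with all arrays (adjusted p = 0.159).

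The members and gene lists were chosen with earlier results of these data known. The text names all members, Cx3cr1, up to 2 genes a list with the smallest p in a comparison, and the 3 genes most like each target. From the FAD DKO comparison with wild type and the FAD comparison with wild type only a part of these is printed. Python 3.11.15 with matplotlib 3.10.9 made the figures.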

Additional observations from a re-analysis of the deposited data

How the results depend on the processing

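The untargeted genes were recomputed under 17 alternatives, 9 of which left out 1 array. Over the 3 comparisons these gave 408 values, of which 0 passed an adjusted p under 0.05 in limma (lowest 0.338); for FAD DKO minus FAD the values lay between -0.15 and 0.32. Leaving out 1 array moved Hdac1 in that comparison between -0.61 and -0.49 and Hdac2 between -0.74 and -0.58, with the values nearest 0 without FAD DKO replicate 2; neither passed in any of these fits. Hdac2 at -0.68 passed without low-signal genes and with a trended, robust variance model.

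Signs turned in 22 values of untargeted genes, all within 0.14 of 0. In FAD DKO minus FAD, leaving out 1 array moved Hdac9 between -0.00895 and 0.0132 and Hdac11 between -0.0492 and 0.14. In FAD minus wild type it moved Hdac9 between -0.0745 and 0.11 and Hdac11 between -0.14 and 0.0503, and Hdac11 was at 0.0186 with the mean of its probe sets. In FAD DKO minus wild type it moved Hdac3 between -0.0442 and 0.10, Hdac8 between -0.0331 and 0.0244, Hdac7 between -0.14 and 0.0892, Hdac9 between -0.0702 and 0.12, Hdac6 between -0.0111 and 0.0796 and Hdac11 between -0.0542 and 0.0654; Hdac8 was at 0.00295 with quantile normalization, and Hdac7 at -0.0546 and Hdac11 at -0.0217 with array weights. The cause was not tested.

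The count of genes called in FAD DKO minus FAD, 5 with all arrays, was 11 without low-signal genes, 12 with the trended, robust model, 3 with quantile normalization and 0 with these 2 groups alone, and lay between 0 (without FAD replicate 2 or FAD DKO replicate 3) and 5 with 1 array left out. In FAD minus wild type, 9 became 33 without low-signal genes, 43 with the trended, robust model, 22 with array weights and 5 with the 2 groups alone (8 to 12 with 1 array left out). In FAD DKO minus wild type, 31 became 117, 124, 82 and 13 under the same settings, and 2 (without wild type replicate 2 or FAD DKO replicate 3) to 28 with 1 array left out.

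Replicate numbers are shared between the groups. The correlation of the deviations of same-numbered arrays lay between -0.0821 and 0.104 over 9 pairs and was over 0.1 in 2. Over 18 pairs of arrays with different numbers it lay between -0.150 and 0.0863 and was over 0.1 in 0. With the replicate block 2 genes were called in FAD DKO minus FAD, 8 in FAD minus wild type and 11 in FAD DKO minus wild type, Hdac1 was at -0.56 (adjusted p = 0.429) and Hdac2 at -0.68 (adjusted p = 0.276) in FAD DKO minus FAD.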
